A study of Mus musculus with 5 samples.

Results

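The mRNAs of 9 transcription factors that pattern the developing cerebral cortex, Pax6, Emx1, Emx2, Lhx2, Nr2f1, Nr2e1, Sp8, Dmrta2 and Dmrt3, were followed through an RNA immunoprecipitation experiment. They were chosen by gene symbol, with earlier results of these data known. All 9 were found among the 49875 gene IDs of the table, and all 9 were among the 12769 genes tested. The material was neocortex of wild-type mouse embryos at E13.5 (the labels also give the tissue as forebrain), with no transgene or treatment in any group. After dissociation and mild lysis, the cytoplasmic supernatant was divided. The eIF4E group (n = 2 libraries) was precipitated with an antibody against eIF4E, the protein that holds the 5′ cap of mRNAs at the start of translation. The IgG group (n = 1) was precipitated with control rabbit immunoglobulin. The Input group (n = 2) was the unprecipitated cytoplasmic fraction. Replicates are titled as biological, but the animals or pools behind them are not named, so p-values here reflect library-to-library spread that may be partly technical.

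In the ventricular zone of the cortex, these factors are expressed in gradients that give progenitors their position before areas form. Emx2, Dmrta2 and Dmrt3 are known for caudomedial expression, Pax6 for rostrolateral, Sp8 for rostromedial and Nr2f1 for caudolateral expression. Lhx2 is known as a selector that keeps cortical progenitors from becoming hem or antihem, the signalling borders of the cortex. Nr2e1 maintains neural progenitors, and Emx1 marks the dorsal telencephalon.

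Values are RSEM abundances, which are scaled for transcript length and library size and may be TPM or FPKM. Genes can therefore be compared within a library, but the depth behind a value is unknown. Replicates correlated across genes with r = 0.989 (eIF4E) and 0.993 (Input), genes not being independent replicates. The IgG library stood apart: its r was 0.701 and 0.707 to the eIF4E libraries and 0.596 and 0.593 to the Input libraries, and of 5403 genes above 10 in the other 4 libraries it listed 360 at exactly 0. Every comparison with IgG rests on that library. All 11 radial glia, 7 intermediate progenitor and 8 neuron markers were above 0 in every library, while Nkx2-1, Gsx1 and Lhx8, which mark ventral telencephalon, were listed at 0 in both Input libraries. The summed level of the radial glia markers, the cells that carry most of these factors, was 1477 and 1368 in eIF4E, 1203 in IgG and 1678 and 1706 in Input. The sum was lower in eIF4E than in Input although 6 of the 11 markers were higher and 4 lower there, with a median of log2 0.38 against 0.16 over all tested genes. Pax6, a member, is also among these radial glia markers and among those that were higher. Summed intermediate progenitor markers were 1495 and 1558 in eIF4E, 996 in IgG and 1108 and 1103 in Input, with 6 of 7 higher in eIF4E than in Input and 0 lower. Summed erythroid markers were 6446 and 4843 in eIF4E, 2521 in IgG and 17163 and 18695 in Input. The part of these marker shifts in the results below was not tested. The groups were portions of a divided supernatant of bulk lysate, and these sums are levels of RNA in a library, not numbers of cells.

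Because eIF4E holds the cap, the bases at the annotated start of each mRNA are given here. Each line shows 30 bases around an annotated start (GRCm38.p6), the most upstream of those listed for the gene. The window holds 10 bases before it and 20 from it on, so that the 11th base is the annotated start. For Lhx2, Sp8, Dmrta2 and Dmrt3 the RefSeq gene span begins further upstream, for Dmrt3 at 25610246 against a start at 25610537. Capitals mark the longest run of C and T in the 20 transcribed bases.
Pax6, chr2:105668886-105668915 (plus strand): ctgccggagcaCCCTCTTTTCTTatcgttg
Emx1, chr6:85187921-85187950 (plus strand): ctccgcttcggcggccgcgacgatgTTCCa
Emx2, chr19:59458680-59458709 (plus strand): gccatttaccaggCTTCggaggaagctgtt
Lhx2, chr2:38339271-38339300 (plus strand): gggcgcccaggCCaggacgctgcggcgcgg
Nr2f1, chr13:78198854-78198883 (minus strand): gagagcctgggggggCTgcaaaaagagaga
Nr2e1, chr10:42583571-42583600 (minus strand): ccgcagcgacaggcacaaagTCacagggta
Sp8, chr12:118846319-118846348 (plus strand): gggcaaacacaCCTCCTCCaggacgtgcac
Dmrta2, chr4:109978015-109978044 (plus strand): tagagcgggcgagcggCTCattgagagctg
Dmrt3, chr19:25610527-25610556 (plus strand): aggaagtggctcagaccgtaatcagagCTC
Pax6 stood out by a run of 12 pyrimidines right after its start, and Sp8 had a run of 8. In all, 3 of the 14 annotated starts of the 9 genes had a run of at least 8, against 6.74% of 32851 annotated mouse starts. These were both listed starts of Pax6 (runs of 12 and 10, the latter not shown) and the Sp8 start shown. They are thus not separate genes. A run of at least 12 was at 1 of the 14, against 1.15%. The run that defines terminal oligopyrimidine mRNAs, a C at the start followed by at least 4 more pyrimidines, was at 0 of the 14 starts and at 2.51% of all. Scored on their first listed start alone, only 12 of 61 ribosomal protein genes had it, although that class is known for it. A search of first listed starts thus misses many such leaders. The Emx1 window holds an ATG at base 13 from its start, the only one among the 9 windows. These are descriptions of the annotation, and no match says only that the letters are not in this window.

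In the Input libraries, the levels of the 9 mRNAs covered a wide range. Emx1 (219 and 222) and Lhx2 (217.5 and 217.3) were the most abundant, above 94.4% and 94.3% of tested genes. Nr2e1 (50.7 and 46.8), Nr2f1 (24.4 and 32.1), Pax6 (23.6 and 25.9) and Emx2 (18.0 and 20.3) were intermediate. Sp8 (6.81 and 6.93), Dmrta2 (4.17 and 3.74) and Dmrt3 (2.12 and 2.35) were low. In that order each gene's libraries lay above those of the next, except that Nr2f1 and Pax6 overlapped. In the eIF4E libraries the order differed: Lhx2 was alone at the top (389 and 409), and Emx1 (80.7 and 81.0) came next, followed by Nr2e1, Pax6, Nr2f1 and Emx2, with Nr2f1 and Emx2 overlapping.

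**Figure D1:**
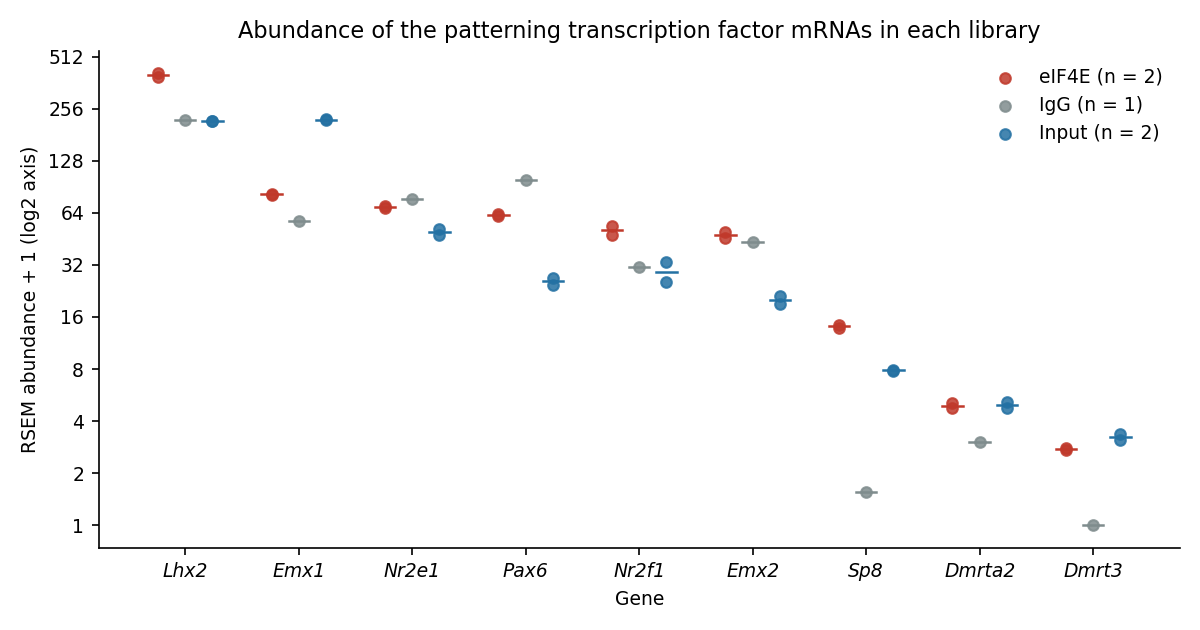
RSEM abundance + 1 (log2 axis) of each of the 9 mRNAs in the eIF4E (n = 2), IgG (n = 1) and Input (n = 2) libraries; points are libraries and bars are means. Emx1 is lower in eIF4E and IgG than in Input, Pax6 and Emx2 are higher in both precipitates than in Input, and Sp8 and Dmrt3 are lowest in IgG.

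The comparison of eIF4E with Input asks how strongly each mRNA was represented with the cap-binding protein relative to the cytoplasm it came from. Of the 9 mRNAs, 6 rose (Pax6, Emx2, Lhx2, Sp8, Nr2f1 and Nr2e1), 1 fell (Emx1), and Dmrta2 and Dmrt3 did not pass the threshold (limma, adjusted p under 0.05 over all tested genes). Of all tested genes, 43.3% were higher and 30.6% lower. The members' median log2 fold change was 0.81, against 0.16 over all tested genes. It was 0.49 with median-of-ratios scaling, 0.46 with quantile normalization, 1.04 with the same total and 0.62 without Input replicate 1. Fold changes are on the scale of value + 1, which understates the change of low genes such as Dmrt3. Scaling moved the median of all genes from 0.16 to −0.11 (median of ratios and quantile) or 0.36 (same total). The share of calls that were higher moved from 58.6% to 45.7% (median of ratios), 45.5% (quantile) and 70.3% (same total). Relative to the median of all genes as deposited, the log2 changes were Pax6 1.12, Emx2 1.09, Lhx2 0.72, Sp8 0.69 and Nr2f1 0.65. Those of Nr2e1, Dmrta2, Dmrt3 and Emx1 were 0.32, −0.17, −0.39 and −1.59.

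Pax6, a paired-box and homeodomain factor of radial glia, had 62.4 and 60.4 in eIF4E, against 23.6 and 25.9 in Input. The eIF4E libraries were well above the Input libraries, 2.42-fold on the value + 1 scale (log2 1.28, SE 0.07, limma adjusted p = 1.6e-04), or 1.12 log2 units above the median of all genes. Emx2, the homeodomain factor that favours caudal area identity, had 48.6 and 44.7 in eIF4E and 18.0 and 20.3 in Input. It rose by a like amount, 2.37-fold (log2 1.24, SE 0.09, limma adjusted p = 3.1e-04). Lhx2, the LIM-homeodomain selector, had 389 and 409 in eIF4E and 217.5 and 217.3 in Input, a rise of 1.83-fold (log2 0.87, SE 0.04, limma adjusted p = 1.4e-04). For each of these genes the call held under all 14 processing alternatives, and the groups did not overlap. With 2 libraries a group, a lack of overlap says little by itself. Its share over all tested genes, here and below, was not counted.

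Emx1, the paralog of Emx2, went the other way. It had 80.7 and 81.0 in eIF4E, against 219 and 222 in Input, and fell to 0.369 of Input (log2 −1.44, SE 0.04, limma adjusted p = 6.6e-05). Only 2.47% of tested genes had a lower log2 fold change. The fall held under all 14 alternatives, between log2 −1.76 and −1.20. It was thus the most abundant of the 9 in Input and the only one that fell.

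The orphan nuclear receptors both rose, by less. Nr2f1, also called COUP-TFI, had 46.8 and 52.8 in eIF4E and 24.4 and 32.1 in Input (1.75-fold, log2 0.81, SE 0.15, limma adjusted p = 0.0067). Its Input libraries were the most spread of the 9 genes, and without eIF4E replicate 2 it missed the threshold (limma adjusted p = 0.0505). Nr2e1, also called Tlx, had 67.3 and 69.0 in eIF4E and 50.7 and 46.8 in Input (1.39-fold, log2 0.47, SE 0.06, limma adjusted p = 0.0021). The groups did not overlap, but under median-of-ratios scaling the rise shrank to log2 0.16 and missed the threshold (limma adjusted p = 0.0795).

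Sp8, a zinc finger factor that acts with Fgf8 at the rostral pole, had 12.9 and 13.4 in eIF4E and 6.81 and 6.93 in Input (1.80-fold, log2 0.85, SE 0.09, limma adjusted p = 9.5e-04), with no overlap. The DM-domain factors did not pass. Dmrta2, also called Dmrt5, had 4.08 and 3.75 in eIF4E and 4.17 and 3.74 in Input, overlapping values whose log2 difference of −0.01 had a 95% interval from −0.30 to 0.27. Dmrt3 had 1.80 and 1.72 in eIF4E and 2.12 and 2.35 in Input, which did not overlap (log2 −0.23, 95% interval −0.53 to 0.07, limma adjusted p = 0.13). Under quantile normalization both were lower in eIF4E (Dmrta2 log2 −0.78, limma adjusted p = 0.00393; Dmrt3 log2 −0.63, limma adjusted p = 0.00639), and Dmrt3 was lower after median-of-ratios scaling too (log2 −0.44, limma adjusted p = 0.0211).

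**Figure D2:**
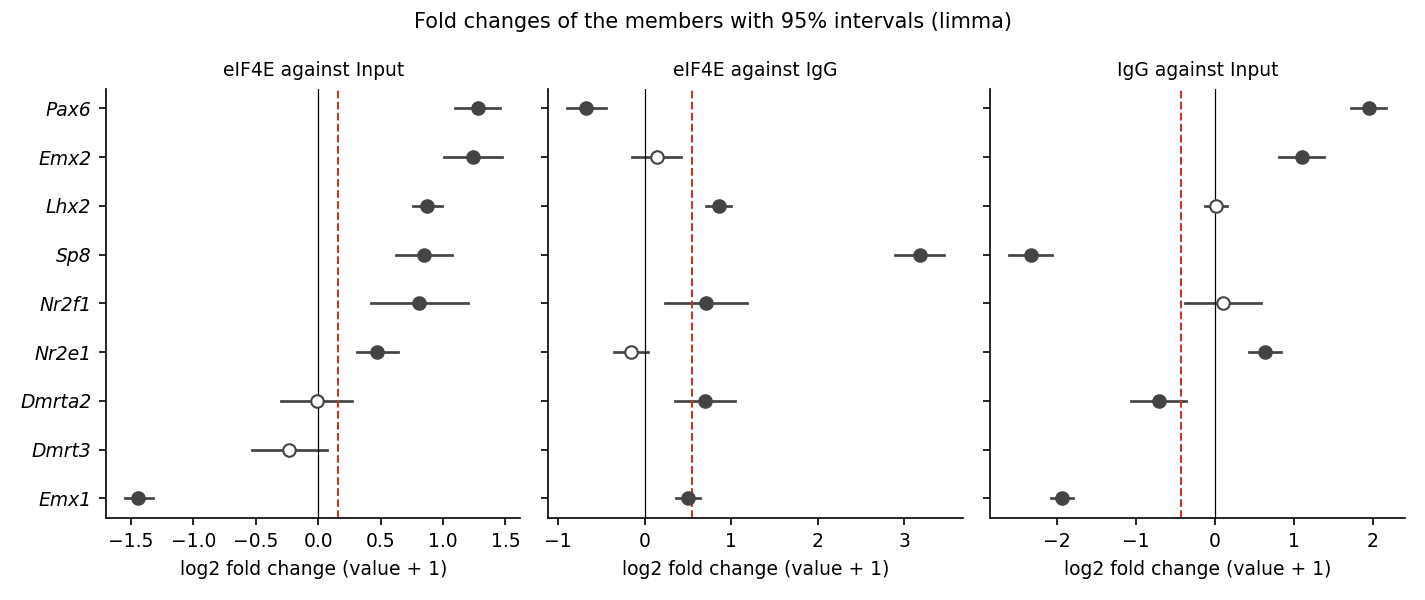
Log2 fold changes (value + 1) of the 9 mRNAs with 95% limma intervals in each comparison; filled points are past the threshold, open points are not, and the dashed line is the median of all tested genes. Emx1 alone lies far left in eIF4E against Input (log2 −1.44), and Pax6 changes side between eIF4E against Input (1.28) and eIF4E against IgG (−0.68). Dmrt3 is not drawn against or in IgG, where it is listed at 0.

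Ratios between 2 of these mRNAs within a library do not depend on a scaling factor. The Emx2 to Emx1 ratio was 0.602 and 0.552 in the eIF4E libraries, 0.746 in IgG, and 0.0820 and 0.0914 in the Input libraries. Both precipitates thus held far more Emx2 per Emx1 than the cytoplasm. On the log2(value + 1) scale, which scaling can affect, the mean shift between eIF4E and Input was 2.68. The Lhx2 to Emx1 ratio was 4.82 and 5.05 in eIF4E, 3.88 in IgG, and 0.992 and 0.979 in Input: equal in the cytoplasm, unequal in both precipitates. The Pax6 to Emx2 ratio, in contrast, was 1.28 and 1.35 in eIF4E and 1.31 and 1.28 in Input, overlapping, and 2.33 in IgG. With 2 libraries a group, an exact permutation test of such a ratio between eIF4E and Input cannot go below p = 0.333 (two-sided), the value reached for the Emx2 and Lhx2 ratios to Emx1. The pairs were chosen after their values were seen.

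**Figure D3:**
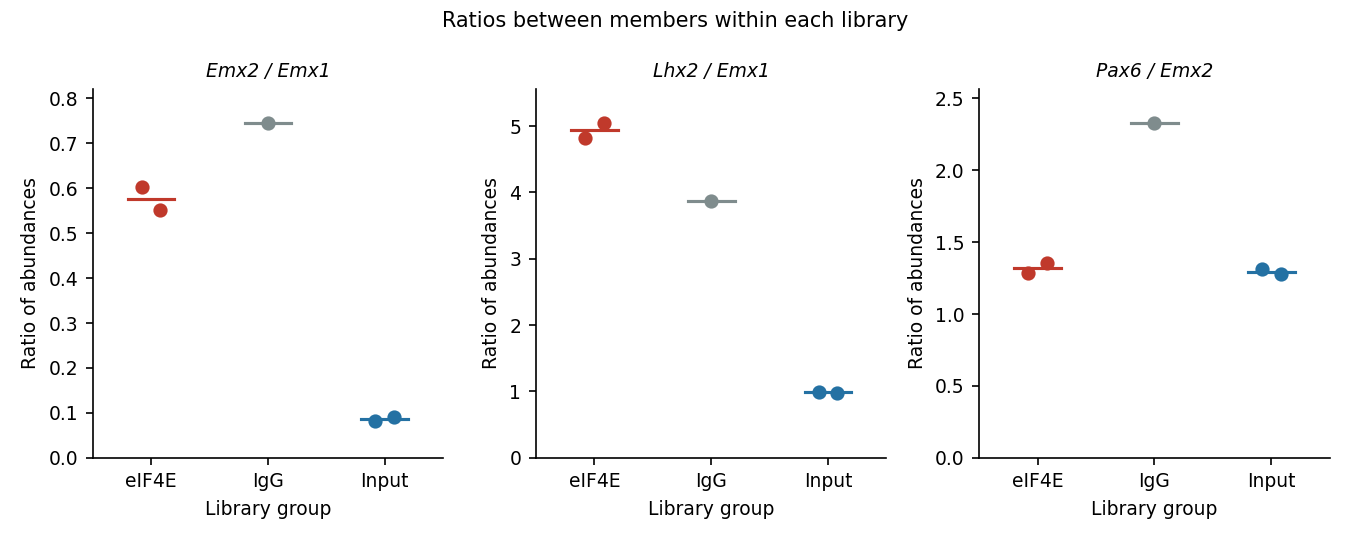
Ratio of abundances of 2 genes within each library (linear axes from 0), by group; points are libraries and bars are means. Emx2 to Emx1 is 0.602 and 0.552 in eIF4E against 0.0820 and 0.0914 in Input, Lhx2 to Emx1 is near 5 in eIF4E and near 1 in Input, and Pax6 to Emx2 overlaps between eIF4E and Input.

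The comparison of eIF4E with IgG asks whether an mRNA held a larger share of the eIF4E precipitate than of the control. How much RNA each precipitate yielded is unknown, so a higher share is not a larger amount. Of the 9 mRNAs, 6 were higher in eIF4E (Sp8, Dmrt3, Lhx2, Nr2f1, Dmrta2 and Emx1), 1 was lower (Pax6), and Emx2 and Nr2e1 did not pass. Of all tested genes, 53.1% were higher and 30.6% lower, so 6 of 9 is not far from the background. The members' median was log2 0.70, against 0.55 over all tested genes, and scaling moved the members' median to 0.10 (quantile) or 0.37 (same total). Among the 10679 genes above 0 in all 5 libraries, which leave out Dmrt3, the members' median was 0.60 and that of all genes 0.03, with 4389 genes higher and 4248 lower. Scaling moved the median of all genes to 0.51 (median of ratios), −0.04 (quantile) or 0.26 (same total). The share of calls that were higher moved from 63.4% to 62.5%, 48.8% and 55.7%. Relative to the median of all genes as deposited, Sp8 lay at log2 2.63, Lhx2 at 0.30, Nr2f1 at 0.15, Dmrta2 at 0.14 and Emx1 at −0.05. Emx2, Nr2e1 and Pax6 lay at −0.42, −0.71 and −1.23, and Dmrt3 is left out for its 0 in IgG.

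Sp8 differed most. It had 12.9 and 13.4 in eIF4E, against 0.56 in IgG, 9.07-fold higher on the value + 1 scale (log2 3.18, SE 0.11, limma adjusted p = 2.8e-05). With so low a value in IgG the size depended on the processing, from log2 1.92 (quantile normalization) to 4.33 (pseudocount 0.1), always past the threshold. Dmrt3 had 1.80 and 1.72 in eIF4E and was listed at 0 in IgG (limma adjusted p = 5.2e-04), a call lost under quantile normalization (limma adjusted p = 0.702). Dmrta2 had 4.08 and 3.75 in eIF4E and 2.03 in IgG (log2 0.70, limma adjusted p = 0.0061), a difference that turned under quantile normalization (log2 −0.40, limma adjusted p = 0.0624). These are the least abundant of the 9, and the IgG library lacked many genes that the other libraries held. The part of its missing genes in these values was not tested.

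Lhx2 had 389 and 409 in eIF4E and 219.84 in IgG (1.81-fold, limma adjusted p = 1.4e-04) for the values as deposited. The difference was smaller with quantile normalization (log2 0.25, limma adjusted p = 0.026) and the same total (log2 0.51, limma adjusted p = 0.00107), where that over Input was log2 1.08 and 1.11. Nr2f1 had 46.8 and 52.8 in eIF4E and 30.1 in IgG (1.63-fold, limma adjusted p = 0.017). Emx1 had 80.7 and 81.0 in eIF4E and 56.7 in IgG (1.42-fold, limma adjusted p = 7.3e-04), so its level in eIF4E lay between IgG and Input. After rescaling to the same total, Emx1 (limma adjusted p = 0.0524) and Nr2f1 (limma adjusted p = 0.106) missed the threshold. Pax6 had 62.4 and 60.4 in eIF4E and 98.6 in IgG, and was lower in eIF4E under all 14 alternatives (0.626 of IgG, log2 −0.68, SE 0.08, limma adjusted p = 0.0013). Emx2 had 48.6 and 44.7 in eIF4E and 42.3 in IgG (log2 0.14, 95% interval −0.15 to 0.42, limma adjusted p = 0.283). Nr2e1 had 67.3 and 69.0 in eIF4E and 76.3 in IgG (log2 −0.16, 95% interval −0.36 to 0.04, limma adjusted p = 0.106). It was lower in eIF4E under quantile normalization (log2 −0.37, limma adjusted p = 0.00892) and after rescaling to the same total (log2 −0.51, limma adjusted p = 0.00325).

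Set side by side, 3 of the 9, Lhx2, Nr2f1 and Sp8, were higher in eIF4E than in Input and than in IgG, as were 19.8% of tested genes. Both comparisons use the same eIF4E libraries. Lhx2 and Sp8 met this under all 14 alternatives, whereas Nr2f1 did not with no filter on low values, after rescaling to the same total or without eIF4E replicate 2. Pax6, Emx2 and Nr2e1 were called higher in eIF4E than in Input, but not than in IgG. Of the 12769 tested genes, 5535 were higher in eIF4E than in Input, and 2530 of them were also higher than in IgG.

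The IgG library against Input shows what the control precipitate itself held. In it, 3 of the 9 were higher (Pax6, Emx2 and Nr2e1), 4 were lower (Sp8, Emx1, Dmrt3 and Dmrta2), and Lhx2 and Nr2f1 did not pass. Of all tested genes, 37.8% were higher and 50.3% lower, with a median of log2 −0.43 that scaling moved to −0.63 (median of ratios), −0.06 (quantile) or 0.03 (same total). Pax6 was 3.87-fold higher in IgG than in Input (98.6 against 23.6 and 25.9; limma adjusted p = 3.1e-05) and Emx2 2.15-fold (42.3 against 18.0 and 20.3; limma adjusted p = 4.5e-04). Emx1 fell to 0.260 of Input (56.7 against 219 and 222; limma adjusted p = 1.2e-05) and Sp8 to 0.198 (0.56 against 6.81 and 6.93; log2 −2.33, limma adjusted p = 3.7e-05), with a range over the alternatives from log2 −3.40 to −1.51. Nr2e1 was 1.55-fold higher (76.3 against 50.7 and 46.8; limma adjusted p = 9.9e-04). Dmrta2 was lower (2.03 against 4.17 and 3.74; limma adjusted p = 0.0053), but missed the threshold with quantile normalization (limma adjusted p = 0.0634) and the same total (limma adjusted p = 0.104). Emx1, Pax6, Emx2 and Nr2e1 lay on the same side of Input in both precipitates, Sp8 on opposite sides. How many of all tested genes did either was not counted. The comparisons share their Input libraries, and the eIF4E and IgG values are given above. For Lhx2, 219.84 in IgG against 217.5 and 217.3 in Input gave log2 0.02 (limma adjusted p = 0.79), which depended on scaling: −0.26 with median of ratios (limma adjusted p = 0.0139), 0.83 with quantile normalization (limma adjusted p = 3.3e-04) and 0.60 with the same total (limma adjusted p = 4.7e-04).

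**Figure D4:**
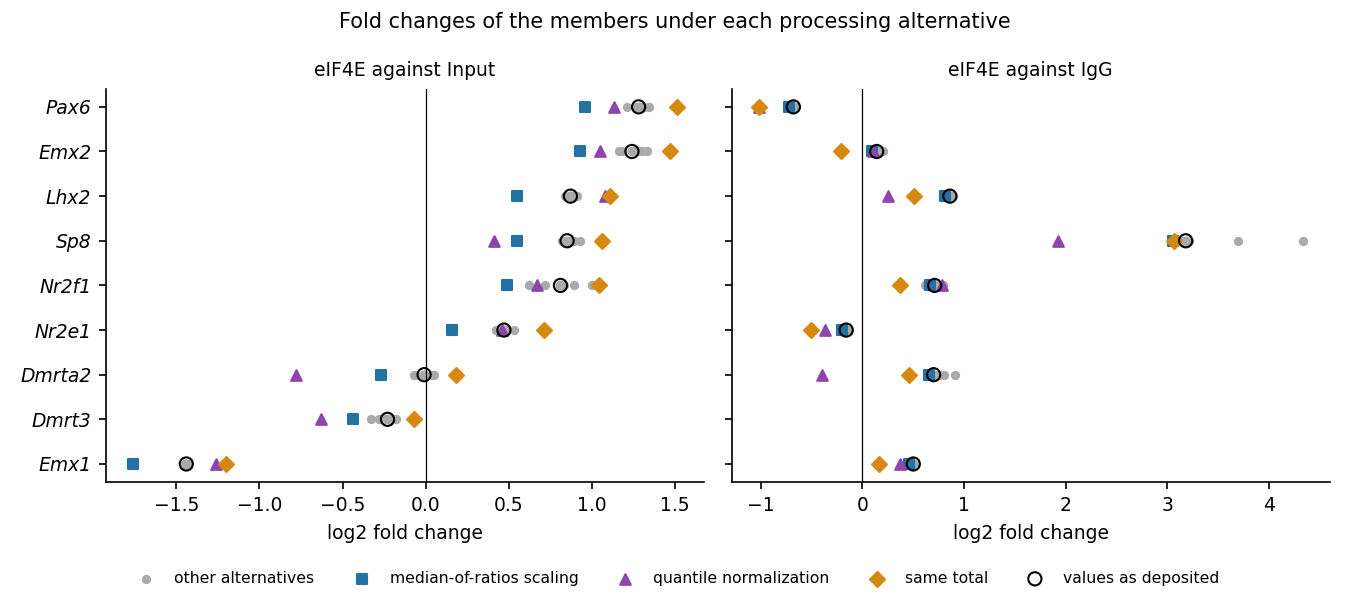
Log2 fold change of each of the 9 mRNAs for the values as deposited and under 14 processing alternatives. In eIF4E against Input, Pax6, Emx2, Lhx2, Sp8, Nr2f1 and Nr2e1 stay right of 0 and Emx1 left of it, while Dmrta2 falls on both sides; Dmrt3 is not drawn against IgG, where it is listed at 0.

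Pax6, Lhx2, Nr2f1 and Dmrta2 overlap transcripts of the opposite strand, and the libraries do not mark strand, so reads from the shared bases cannot be told apart. The 2 lncRNAs that overlap Lhx2 were at or below 0.56 in every library. Dmrta2os, which shares 1636 bases of its locus with Dmrta2, was far more abundant than Dmrta2: 50.5 and 37.9 in eIF4E, 58.4 in IgG and 66.4 and 59.1 in Input. It was lower in eIF4E than in Input (0.703, limma adjusted p = 0.034), while Dmrta2 did not pass. Pax6os1, which shares 1435 bases with Pax6, was low at 1.51 and 2.38 in eIF4E, 0 in IgG and 0.79 and 0.57 in Input, so Pax6 held at least 25.4 times its level in each library where both were above 0. Elp4, a gene of the Elongator complex, also overlaps Pax6, by 1091 bases. It did not pass in eIF4E against Input (47.3 and 55.7 against 65.2 and 56.4; limma adjusted p = 0.12). The lncRNA A830082K12Rik shares 857 bases with Nr2f1. It had 33.9 and 37.2 in eIF4E, 61.6 in IgG and 9.27 and 10.9 in Input, a rise over Input (log2 1.72, limma adjusted p = 2.0e-04) larger than that of Nr2f1. Emx2os, whose RefSeq span ends just short of Emx2, had 2.31 and 2.90 in eIF4E, 2.84 in IgG and 1.88 and 1.68 in Input.

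Related genes were examined in lists chosen with earlier results of these data known. Among 18 tested paralogs and cofactors of the 9 factors, 8 were higher in eIF4E than in Input and 4 lower, with a median of log2 0.20 against 0.16 over all tested genes. The largest rises were in Dmrta1, a DM-domain paralog (12.8 and 14.5 in eIF4E against 8.18 and 6.22 in Input; log2 0.85, limma adjusted p = 0.0066), and Kdm1a, a histone demethylase and known partner of Nr2e1 (log2 0.78, limma adjusted p = 0.0013). The largest falls were in Ssbp4 (7.53 and 9.43 in eIF4E against 40.6 and 46.2 in Input; log2 −2.23, limma adjusted p = 1.9e-04), of a family that joins LIM-domain complexes, and Lmo1, a LIM-only factor (log2 −0.88, limma adjusted p = 2.8e-04). Against IgG, 7 of the 18 were higher and 8 lower. Their median there was log2 0.21, or −0.42 without 4 genes listed at 0 in IgG.

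Of 26 tested transcription factors that pattern the telencephalon beside the 9, 9 were higher in eIF4E than in Input and 9 lower (median log2 0.09). Gli3, a hedgehog effector of the dorsal telencephalon, had 22.4 and 22.5 in eIF4E, 86.0 in IgG and 4.64 and 4.92 in Input (log2 2.02 over Input, limma adjusted p = 7.6e-05). Meis2, a homeodomain factor, had 183 and 191 in eIF4E, 224 in IgG and 48.2 and 50.4 in Input (log2 1.90 over Input, limma adjusted p = 6.1e-05). Both rose over Input and were lower than IgG, as Pax6 did. The Notch effectors fell: Hes1 had 18.4 and 17.9 in eIF4E against 73.5 and 68.0 in Input (log2 −1.90, limma adjusted p = 7.6e-05), and Hes5 had 301 and 306 in eIF4E against 600.1 and 611 in Input (0.502 of Input, limma adjusted p = 8.6e-05). Against IgG, 10 were higher and 16 lower (median log2 −0.76, and −0.99 without 5 genes listed at 0 in IgG).

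Of 27 listed ligands, receptors and feedback genes of the signals that set up these gradients, 16 were tested. Fgf17 and Fgf8, the rostral organizer's ligands, were at or below 0.31 in every library. In eIF4E against Input, 6 rose and 5 fell (median log2 0.06). Fgfr2, an FGF receptor, rose (28.9 and 34.4 in eIF4E, 11.7 and 10.4 in Input; log2 1.44, limma adjusted p = 4.4e-04), as did the ligand Nrg1 (log2 1.21, limma adjusted p = 2.0e-04). Wnt8b, a ligand of the cortical hem, fell (1.16 and 0.85 in eIF4E, 3.40 and 3.23 in Input; log2 −1.11, limma adjusted p = 0.0015), and so did Wnt7a (log2 −0.54, limma adjusted p = 0.0023). Against IgG 8 were higher and 5 lower, with a median of log2 0.18, or −0.66 without 5 genes listed at 0 in IgG.

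Beside these, transcription factors of other roles were set for comparison. Of 11 tested ventral factors, 7 rose in eIF4E over Input and 4 fell (median log2 0.57), with Foxp2 (log2 2.69) and Ebf1 (log2 1.37) highest and Dlx5 (log2 −0.79) among those that fell. Of 10 tested proneural factors, 6 rose and 2 fell (median log2 0.47), with Bhlhe22 (log2 1.78) and Neurod1 (log2 1.65) highest and Neurog1 (log2 −0.41) among those that fell. Of 20 cortical layer factors, which include Lhx2 and share Foxp2 with the ventral list, 17 rose and 1 fell (median log2 1.03), with Foxp2 and Nfib (log2 2.42) highest and Fezf2 (log2 −0.36) the one that fell. Each gene named here passed the threshold (limma adjusted p = 0.0412 for Dlx5 and lower for the others). Against IgG the medians of the 3 lists were log2 −0.80, 0.09 and −1.12, against 0.70 for the 9 patterning factors. The ventral median was −1.33 without 2 genes listed at 0 in IgG, and the other lists held no such gene. No test of a difference between lists was made.

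**Figure D5:**
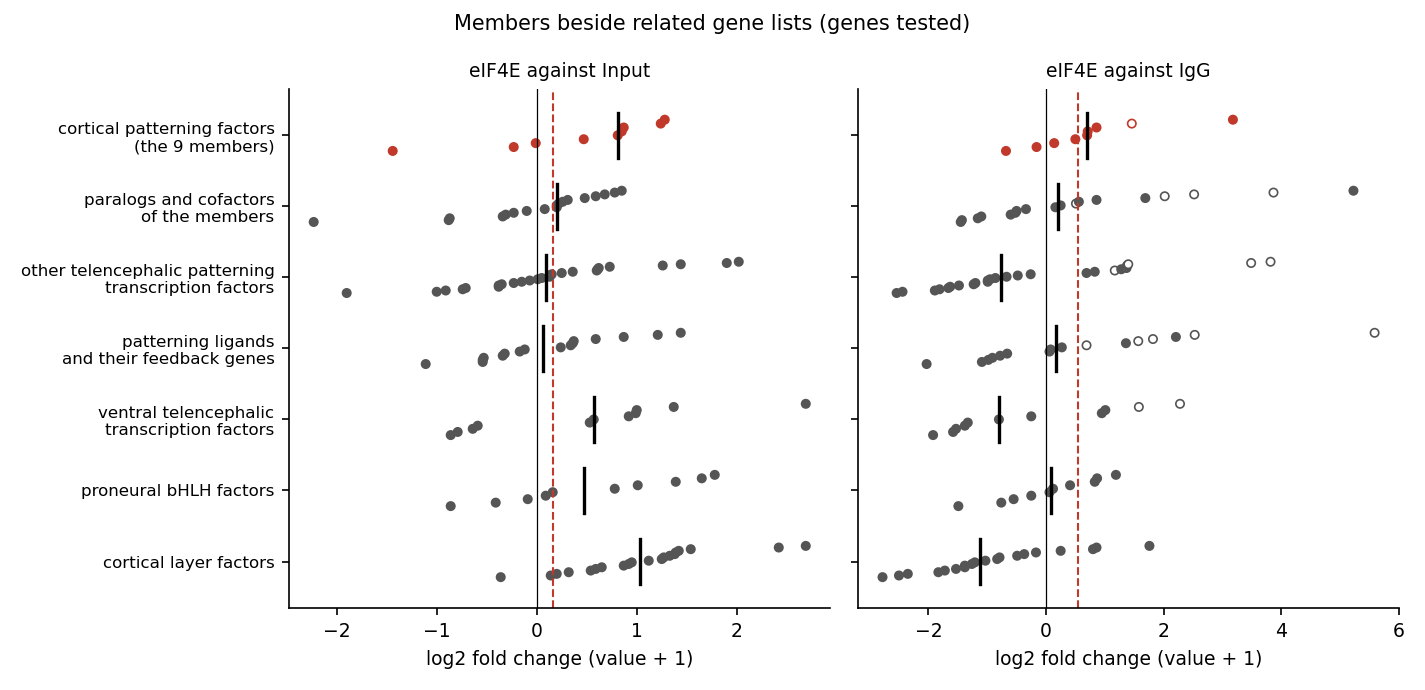
Log2 fold change (value + 1) of each tested gene in the 9 patterning factors and 6 related lists, for eIF4E against Input and eIF4E against IgG; thick bars are list medians, the dashed line is the median of all tested genes (0.16 and 0.55), and open points are genes listed at 0 in IgG, whose position depends on the pseudocount. Cortical layer factors have the highest median against Input (1.03) of the lists drawn and a median of −1.12 against IgG, while the 9 patterning factors lie at 0.81 and 0.70.

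The genes whose profile over the 5 libraries was nearest to each member were sought among 6139 tested genes above the median level, leaving out predicted and clone-named genes, by Euclidean distance of log2(value + 1) after centring each gene on its mean. Emx1 was nearest to the ribosomal protein gene Rps9 (distance 0.108), which had 1451 and 1355 in eIF4E, 1035 in IgG and 3669 and 3891 in Input. Pax6 was nearest to Trim8 (0.108), Emx2 to Zfp664 (0.134), Lhx2 to Sf3a3 (0.067), Nr2e1 to Dcaf12 (0.068), Nr2f1 to Vps36 (0.193) and Sp8 to Tmem167b (0.107). Dmrta2 was nearest to Dus1l (0.083) and Dmrt3 to Nipsnap2 (0.057), which was not at 0 in IgG (4.62). The 9 did not share 1 profile. Pax6 and Emx2 were each other's closest member at 0.745, with 938 genes nearer to Pax6 than Emx2, and Lhx2 and Nr2f1 were each other's closest at 0.305, with 151 genes nearer to Lhx2. For Emx1 the closest member was Dmrt3, with 2181 genes nearer. These counts are over all tested genes.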

How the data were processed

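RNA abundance was measured in 5 libraries (2 eIF4E, 1 IgG, 2 Input). Libraries were made by Smart-seq2, which does not mark strand, per the labels' protocols. Tools named in the submitters' processing notes are RSEM 1.3.3 and STAR 2.7.9a, with build mm10. The deposited signal column of each library holds RSEM abundances, linear, TPM or FPKM; annotation and depth were not given in the sources used here, and column totals run from 560076 to 848550. Of 50161 rows, 286 repeated a gene ID and were dropped. Genes with at least 1 in at least 2 libraries were tested with limma 3.58.1 in R 4.3.3 on log2(value + 1): 3 groups, all 5 libraries, eBayes with trend, two-sided, Benjamini-Hochberg over all 12769 genes. The fit has 2 residual and 2.57 prior degrees of freedom, and takes the spread of the single IgG library to equal that of the other groups. The fit was also run on simulated data, where only eIF4E against Input was scored and far fewer genes were changed than were called here. That run does not bear on the comparisons with the single IgG library. Members and lists were chosen with earlier results of these data known. Named beside the members are, per list, up to 2 genes with the highest and 2 with the lowest fold change among those called in eIF4E against Input, antisense genes by symbol, and 1 nearest profile per member; overlapping genes, Fgf8 and Fgf17 were added after values were seen. One gene that this rule names is not reported here. Coordinates and start sequences are RefSeq GRCm38.p6, matched by symbol for all 9. Alternatives covered pseudocount, filter, scaling, samples in the fit, variance trend, replicate block and each replicate left out.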

Additional observations from a re-analysis of the deposited data

How the results depend on the processing

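Counts of members called were recomputed under 14 alternatives in each comparison. All but 5 of these counts stayed within 1.5 times the reported one. That bound is wide enough to hide lost calls of higher in eIF4E than in IgG. Dmrta2 and Dmrt3 lost theirs with quantile normalization, and Emx1 and Nr2f1 lost theirs with the same total. In eIF4E against Input, 1 member was lower as deposited, 2 with median-of-ratios scaling (Emx1 and Dmrt3) and 3 with quantile normalization (Dmrta2 as well). In eIF4E against IgG, 2 rather than 1 were lower with quantile normalization and with the same total (Pax6 and Nr2e1). In IgG against Input, 5 rather than 3 were higher with the same total (Lhx2 and Nr2f1 as well). Leaving out 1 replicate of eIF4E or Input gave 5 to 6 members higher and 1 lower in eIF4E against Input, 5 to 6 and 1 in eIF4E against IgG, and 3 and 4 in IgG against Input; leaving out IgG leaves no such comparison.

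Of the members' fold changes, 9 values changed sign, and for Lhx2 in IgG against Input alternatives passed the threshold in both directions (−0.26 with median of ratios, 0.83 with quantile normalization, 0.60 with the same total). They were Dmrta2 in eIF4E against Input (0.18 with the same total, 0.04 without eIF4E replicate 2, 0.05 without Input replicate 1; −0.07 to 0.05 over the left-out replicates) and against IgG (−0.40, quantile), Emx2 against IgG (−0.21, same total), and in IgG against Input Lhx2 (−0.26, median of ratios) and Nr2f1 (−0.17 median of ratios, −0.11 quantile, −0.09 without Input replicate 1; −0.09 to 0.29 over the left-out replicates). The causes were not tested. Of the members' medians, 11 moved by more than the spread between replicates, which has no part from the single IgG library. In IgG against Input the median was 0.02 as deposited, −0.26 with median of ratios and −0.11 with quantile normalization. It was 0.60 with the same total and −0.09 without Input replicate 1. Dmrt3 has no value among genes above 0 in all 5 libraries.

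The shared replicate numbers of eIF4E and Input are not said to mark a pool, and deviations of same-numbered libraries correlated at 0.024 across genes. With a replicate block the counts were 6 higher and 1 lower in eIF4E against Input, 6 and 1 against IgG, and 3 and 4 in IgG against Input, and no member's call changed. Depth is unknown, so the precision of the low values of Dmrta2, Dmrt3 and Sp8 cannot be given.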

Other observations

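Several patterning genes that were well above 0 in the other 4 libraries were listed at 0 in the IgG library; they were picked after their values were seen. Sfrp2, a secreted Wnt inhibitor of the antihem, had 48.4 and 45.7 in eIF4E, 0 in IgG and 39.6 and 34.6 in Input. Id1, an inhibitor of bHLH factors, had 14.1 and 12.2 in eIF4E, 0 in IgG and 24.2 and 26.9 in Input, and Msx1, a homeodomain factor of the dorsal midline, had 11.3 and 9.33 in eIF4E, 0 in IgG and 13.7 and 13.6 in Input. Lmo3, a LIM-only factor, was at 38.2 and 41.0 in eIF4E, 0.08 in IgG and 26.2 and 25.7 in Input, while its relative Lmo1 had 23.5 in IgG.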
